A study of Mus musculus with 6 samples.

Results

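The genes described here encode the proteins of oxidative phosphorylation, the mitochondrial respiratory chain and ATP synthase. Members were taken by gene symbol from the deposited exon counts: nuclear genes for subunits of complex I (Nduf), complex II (Sdh), complex III (Uqcr), complex IV (Cox) and complex V, the ATP synthase (Atp5), and the protein genes of the mitochondrial DNA (mt-). The rule found 102 of 55378 genes, 89 in the nucleus and 13 in the mitochondrial DNA, under 101 symbols, because Atp5o stands for a pair of Ensembl entries whose exons overlap. Ndufa4 and Ndufa4l2 were placed with complex IV, where the Ndufa4 protein is a subunit. No measured value entered the choice.

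Mouse zygotes had been injected with an siRNA against Eif4a3 (knockdown) or with a control siRNA (NC) and were collected as blastocysts on day 5. Each group had 3 libraries, each made from a pool of 5 embryos with Smart-seq2, a full-length method for small RNA amounts. No strain and no other allele or agent is stated in the sources used here, and the labels do not say whether pools of a group had separate parents, so each p-value measures only the spread between these libraries. Eif4a3 encodes a helicase of the exon junction complex, the proteins that splicing leaves on mRNA.

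The summed exon-block counts were between 16157715 and 18697761 in the knockdown libraries and between 15607226 and 18389991 in the NC libraries. Levels are given as CPM (counts scaled to the effective library size), always for replicates 1, 2 and 3 in that order, and levels of different genes are compared only as RPKM (CPM per kilobase of exon block). Eif4a3 itself had 16.03, 36.2 and 56.2 CPM in the knockdown, against 302, 255 and 202 CPM in NC. Of all 15619 genes tested, 7.52% passed as higher and 5.56% as lower in the knockdown at an adjusted p under 0.05 (edgeR). The summed level of 6 trophectoderm markers was 477 to 2124 CPM in the knockdown and 2077 to 5507 CPM in NC, that of 3 inner cell mass markers 116 to 157 CPM in the knockdown and 221 to 273 CPM in NC, and that of 4 primitive endoderm markers 54.2 to 71.4 CPM in the knockdown and 75.9 to 84.7 CPM in NC. All 13 of these markers exceeded 1 CPM in at least 1 library, and the part of cell composition in the results below was not tested. Among the inner cell mass and primitive endoderm markers, the groups overlapped for Pou5f1, Nanog, Gata6 and Gata4. They did not overlap for Sox2, Sox17 and Pdgfra, which were lower in the knockdown. Nanog had 71.2, 63.6 and 88.7 CPM in the knockdown and 63.8, 152 and 205 CPM in NC. Gata6 had 67.9, 52.3 and 54.6 CPM in the knockdown and 61.2, 68.1 and 61.2 CPM in NC. In pools of whole embryos, fewer cells of a type and less RNA per cell cannot be told apart. Of 5 cumulus cell markers, Has2, Fshr and Cyp19a1 were at 0 in all 6 libraries, and the list summed to 16.1 to 28.8 CPM in the knockdown and 3.58 to 15.4 CPM in NC, nearly all of it Amhr2. Sperm, blood and fibroblast markers summed to at most 8.34 CPM in a knockdown library and 38.5 CPM in an NC library.

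Complexes I to IV pass electrons from NADH and succinate to oxygen, and complexes I, III and IV pump protons across the inner mitochondrial membrane as they do so. The ATP synthase makes ATP from the returning protons. Complex II, which is also an enzyme of the citric acid cycle, is built from nuclear genes alone, whereas every other complex joins subunits of both genomes. In mouse embryos oxygen consumption is known to rise at the blastocyst stage.

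The sequences that the results below turn on come in 3 short sets. The first set shows, for a mitochondrial gene at a low level (mt-Co3) and for the one with the highest level (mt-Cytb), the start of the alignment with its closest copy in the nuclear transcripts. These are GENCODE transcript sequences on GRCm38, read on the coding strand, at chrM:8607-8666 (+), chr1:24613912-24613971 (-), chrM:14146-14205 (+) and chr4:80003990-80004049 (+), and capitals mark bases that differ between gene and copy.
mt-Co3: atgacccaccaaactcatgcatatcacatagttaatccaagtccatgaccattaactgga
Gm28437: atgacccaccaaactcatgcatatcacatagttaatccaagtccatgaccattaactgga
mt-Cytb: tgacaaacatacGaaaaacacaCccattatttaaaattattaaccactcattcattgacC
Gm11410: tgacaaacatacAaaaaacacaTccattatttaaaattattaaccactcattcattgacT
The first pair has no difference in these 60 bases, so a read that lies within this stretch matches both loci. The second pair has 3 differences in 60 bases.

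The second set shows both exon stretches that passed the test of exon use. The first is the coding end of the second and last exon of the annotated transcript Ndufs4-205 (chr13:114361473-114361545, minus strand), with its stop codon in capitals. The other is the 40-base first exon of Ndufa10-205, a transcript without an annotated coding sequence (chr1:92462950-92462989, minus strand).
Ndufs4-205: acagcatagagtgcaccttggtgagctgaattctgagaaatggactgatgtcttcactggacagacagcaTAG
Ndufa10-205: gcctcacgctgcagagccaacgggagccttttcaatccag

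The third set gives the bases from 100 to 41 before the RefSeq start (GRCm38.p6) of the 3 members that passed the test of level. They lie at chr13:74350281-74350340, chr9:50603890-50603949 and chr5:71548246-71548305, all on the minus strand, and capitals mark GCGCA or its reverse complement, the core letters of the motif bound by NRF1, a factor known to regulate respiratory chain genes.
Sdha: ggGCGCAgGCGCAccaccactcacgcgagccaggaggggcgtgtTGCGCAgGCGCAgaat
Sdhd: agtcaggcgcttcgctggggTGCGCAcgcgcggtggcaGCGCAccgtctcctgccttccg
Cox7b2: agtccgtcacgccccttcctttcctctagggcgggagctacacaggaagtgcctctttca
The shown stretch holds 5 such matches for Sdha, 3 for Sdhd and 0 for Cox7b2. Within TGCGCA, present in Sdha and Sdhd, matches on both strands are counted on shared bases. The 3 genes were chosen by their test result, and no count for this stretch in other genes is given. A link between these matches and the fold changes was not tested.

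Of the 102 members, 92 had enough counts to be tested, 80 nuclear and 12 mitochondrial. Past the threshold were 2 lower genes, Sdha and Sdhd, both of complex II, and 1 higher gene, Cox7b2 of complex IV. The other 89 did not pass. DESeq2 called 11 lower members of 92, among them Sdha and Sdhd, and 1 higher, Cox7b2. Over all 15619 genes tested DESeq2 called 1490 lower and 1829 higher. With the replicate number as a block, 20 of 92 members were lower and 2 higher. Over all 15619 genes tested, 1198 were lower and 1332 higher in that setting. The calls of the main edgeR fit came to 1.09% higher and 2.17% lower among the 92 members. Both were under the background of that fit, 7.52% and 5.56% among all genes tested. The groups did not overlap, with every knockdown library lower, for 11 of 92 members (11.957%, against 16.3% of all genes tested), and with every knockdown library higher for Cox7b2 alone (20.1% of all genes tested).

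The fold changes of the nuclear members lay mostly below 0 without passing. Of 80 tested nuclear members 64 had a log2 fold change under 0, against 48.8% of all genes tested, and their median was -0.39, against 0.03 over all genes. At an unadjusted p under 0.05 (edgeR), 19 nuclear members were lower and 1 was higher, against 13.7% and 16.4% of all genes tested. The 12 tested mitochondrial members split evenly around 0 with a median of 0.03, and none passed at an unadjusted p under 0.05 (edgeR) or with DESeq2. This median includes mt-Co2 (0.33), mt-Atp6 (0.51), mt-Co3 (-0.46) and mt-Nd4l (1.06), whose levels are uncertain because of near-identical nuclear copies, described below. This contrast between the genomes was not seen without knockdown replicate 2, where the mitochondrial median was -0.54 and the nuclear median -0.47. The nuclear median was -0.65 without NC replicate 1 and -0.20 without NC replicate 3.

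**Figure D1:**
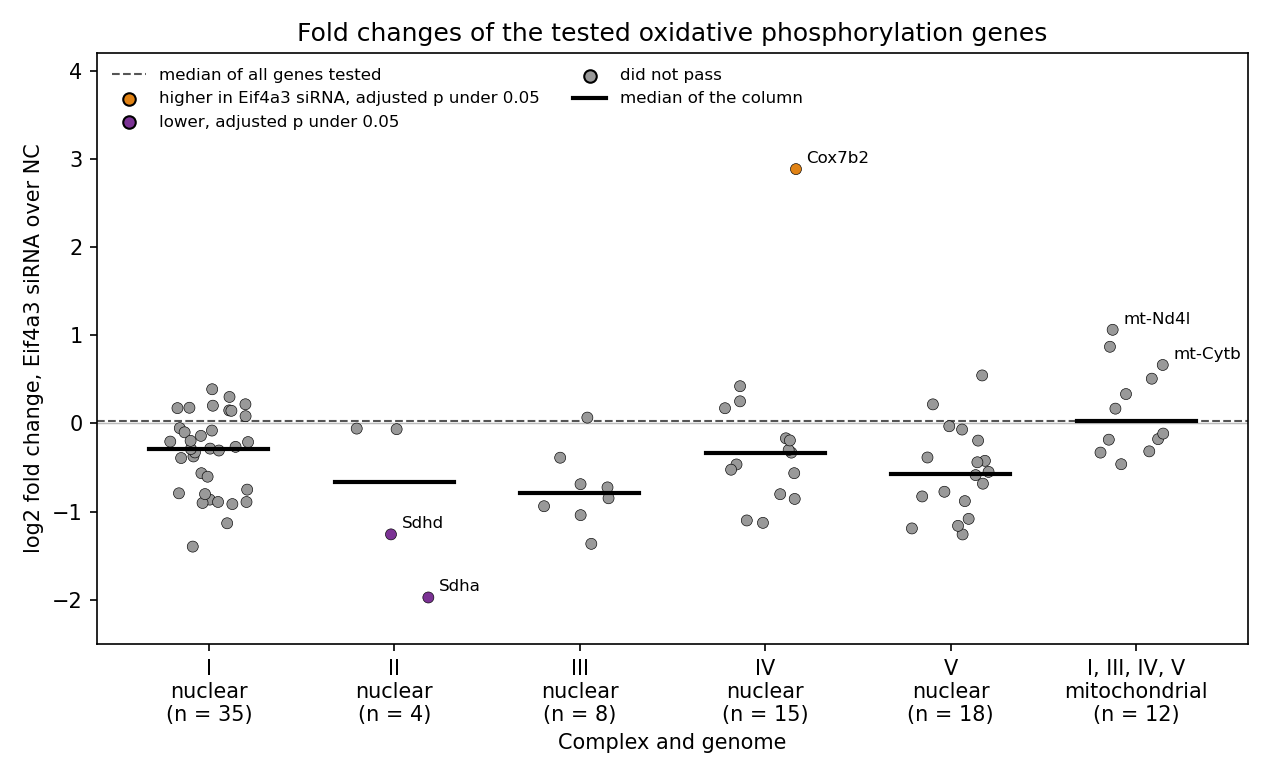
log2 fold change (vertical axis, knockdown over NC) of each tested member, 1 point a gene, by complex and genome (horizontal axis). Black bars are the median of a column and the dashed line is the median of all genes tested. Sdha (-1.97), Sdhd (-1.26) and Cox7b2 (2.88) are the coloured points that passed the test, and the nuclear medians lie between -0.79 (complex III) and -0.29 (complex I).

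By complex, the median log2 fold change of the tested nuclear members was -0.29 for complex I (35 genes), -0.66 for complex II (4 genes), -0.79 for complex III (8 genes), -0.33 for complex IV (15 genes) and -0.57 for the ATP synthase (18 genes). The summed CPM of the nuclear members was 31965 ± 7226 in the knockdown and 41282 ± 11404 in NC (SD, n = 3 each), a log2 ratio of -0.37. By library these sums were 23986, 33842 and 38068 CPM in the knockdown, against 29759, 41524 and 52564 CPM in NC. The groups overlapped in this sum, and replicate 1 had the lowest sum in each group.

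Complex II held both members that fell. Sdha encodes the flavoprotein that oxidises succinate, and Sdhd one of the anchors that hold the enzyme in the membrane and bind ubiquinone. Sdha (chr13:74322254-74350280) had 72.2, 30.6 and 38.5 CPM in the knockdown, against 245, 166 and 144 CPM in NC. Every knockdown library lay below every NC library, and the mean was 3.93-fold lower, with a log2 fold change of -1.97 ± 0.38 (standard error, n = 3 each) and an adjusted p of 0.0108 by edgeR. All 15 tested exon blocks of Sdha were without overlap and lower in the knockdown, with log2 ratios between -2.23 and -0.89.

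Sdhd (chr9:50596357-50603812) had 88.8, 77.9 and 57.5 CPM in the knockdown, against 221, 117 and 198 CPM in NC. The groups did not overlap and the log2 fold change was -1.26 ± 0.32 (standard error, adjusted p 0.0316 by edgeR), with all 4 tested blocks lower in every knockdown library. The Sdhd call was lost without knockdown replicate 2, knockdown replicate 3, NC replicate 1 or NC replicate 3, and over all 15 alternatives the adjusted p (edgeR or DESeq2) lay between 0.00457 and 0.105. Sdha passed in all 15 alternatives.

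The other two subunits of complex II did not pass. Sdhb, the iron-sulfur protein that takes electrons from Sdha, had 641, 698 and 1269 CPM in the knockdown, against 834, 1002 and 879 CPM in NC (log2 fold change -0.06, adjusted p 0.928 by edgeR). Sdhc, the second membrane anchor, had 228, 248 and 210.04 CPM in the knockdown, against 283, 182 and 253 CPM in NC (-0.06, adjusted p 0.902 by edgeR). The groups overlapped for both genes. Within a library, where scaling cancels, the ratio of Sdha to Sdhb CPM was 0.113, 0.0438 and 0.0303 in the knockdown, against 0.293, 0.166 and 0.164 in NC, and the ratio of Sdhd to Sdhc CPM was 0.390, 0.314 and 0.274 in the knockdown, against 0.783, 0.642 and 0.783 in NC. Neither of these ratios overlapped between the groups, nor did that of Sdha to Sdhc. The ratio of Sdhd to Sdhb did overlap, with 0.139, 0.112 and 0.0453 in the knockdown, against 0.265, 0.117 and 0.225 in NC.

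**Figure D2:**
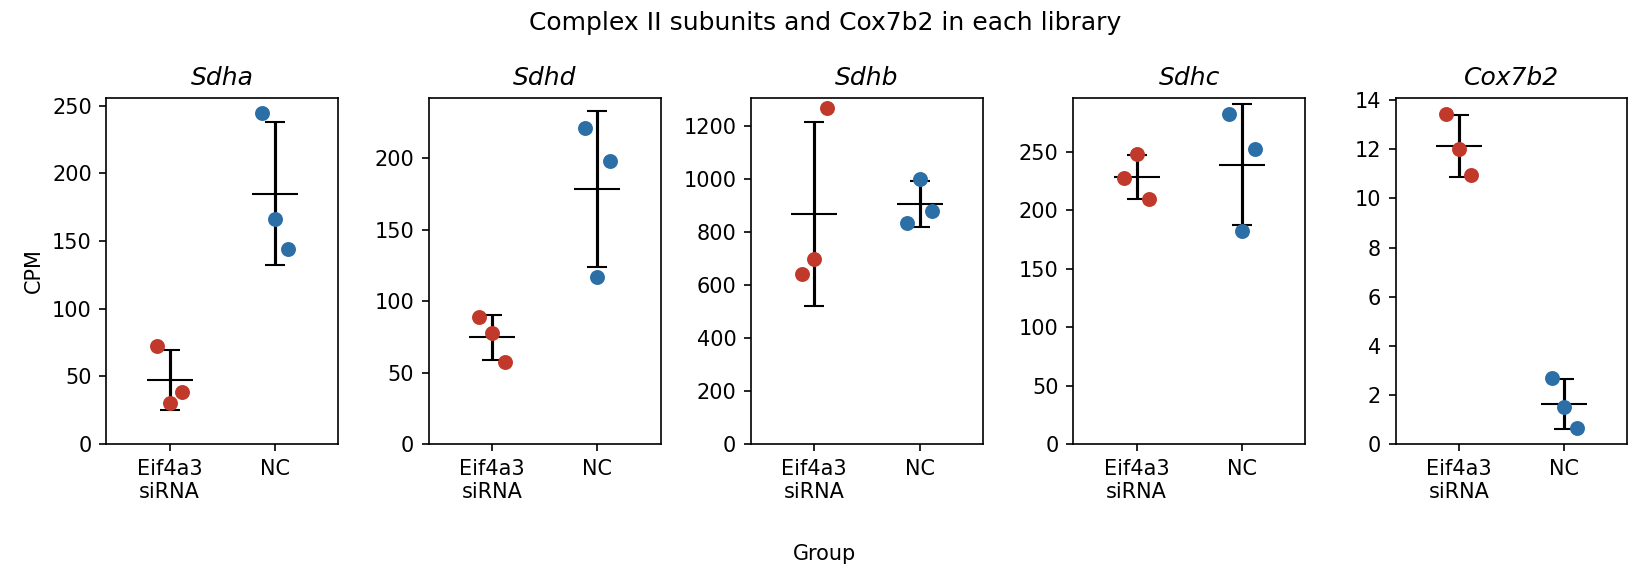
Level in CPM (vertical axes, each from 0) of the 4 complex II genes and Cox7b2 in each of the 3 knockdown and 3 NC libraries. Points are libraries, bars are the mean ± SD. The groups are apart for Sdha, Sdhd and Cox7b2 and overlap for Sdhb and Sdhc.

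Complex I takes electrons from NADH. Its 38 nuclear members gave 35 tested genes, none of which passed, with log2 fold changes between -1.40 and 0.39 and 26 below 0. At an unadjusted p under 0.05 (edgeR) 6 of the 35 were lower, against 13.7% of all genes tested. DESeq2 calls included Ndufb2 and Ndufs1. The lowest log2 fold change belonged to Ndufb2, a small accessory subunit of the membrane arm, with 48.1, 117 and 86.6 CPM in the knockdown, against 111, 238 and 314 CPM in NC (-1.40, adjusted p 0.061 by edgeR). Knockdown replicate 2 exceeded NC replicate 1, so the groups overlapped.

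The large core subunits of complex I were uneven. Ndufs1, the largest iron-sulfur subunit, had 127, 70.7 and 89.6 CPM in the knockdown, against 213, 157 and 164 CPM in NC (-0.89, adjusted p 0.08 by edgeR). Every knockdown library lay below every NC library, although the gene did not pass. Ndufv1, which binds NADH, had 148, 89.0 and 91.9 CPM in the knockdown and 199, 129 and 79.0 CPM in NC, with overlap (-0.31). The smaller core subunits Ndufs3, Ndufs7, Ndufs8 and Ndufv2 had log2 fold changes of 0.39, -0.29, 0.17 and 0.14 with adjusted p of 0.46 to 0.811 (edgeR).

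Among the accessory subunits, Ndufa1 had groups that did not overlap, with 75.5, 143 and 165 CPM in the knockdown and 179, 237 and 281 CPM in NC (-0.86, adjusted p 0.123 by edgeR). Ndufb11 (-0.91), Ndufa2 (-0.90), Ndufv3 (-0.89), Ndufb3 (-0.80), Ndufb4 (-0.79) and Ndufs6 (-0.75) lay near it, and none of them passed. By RPKM the highest nuclear complex I members in NC were Ndufb9 and Ndufa5. Ndufb9 averaged 792 RPKM in the knockdown and 968 RPKM in NC, and Ndufa5 averaged 622 RPKM in the knockdown and 920.2 RPKM in NC. At the other end Ndufs3, Ndufa8 and Ndufa12 had the highest log2 fold changes of the nuclear complex I genes (0.39, 0.30 and 0.22), and their groups overlapped.

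Complex III passes electrons from ubiquinol to cytochrome c. Of its 8 nuclear members 7 had a log2 fold change below 0 and none passed. At an unadjusted p under 0.05 (edgeR) 3 of the 8 were lower, against 13.7% of all genes tested. Uqcr11 was called by DESeq2. Uqcrfs1, the Rieske iron-sulfur protein, had 114, 165 and 142 CPM in the knockdown, against 259, 202 and 234 CPM in NC (-0.72, adjusted p 0.106 by edgeR), without overlap. Uqcr11, a small accessory subunit, had 137, 275 and 299.6 CPM in the knockdown and 271, 700.5 and 860.0 CPM in NC (-1.36, adjusted p 0.0745 by edgeR). Knockdown replicates 2 and 3 exceeded NC replicate 1, so its groups overlapped.

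The other small subunits of complex III were Uqcrq (-1.04), Uqcr10 (-0.94), Uqcrb (-0.85) and Uqcrh (-0.69), and the core protein Uqcrc2 had -0.39, with overlap in each. Uqcr10 had 259.6, 523 and 604 CPM in the knockdown, against 345, 999 and 1313 CPM in NC. Uqcrc1, the other core protein, had 2254, 681 and 1473 CPM in the knockdown, against 1519, 1347 and 1343 CPM in NC (0.07, adjusted p 0.933 by edgeR). Its knockdown libraries held both the highest and the lowest value of the 6.

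Complex IV, cytochrome c oxidase, surrounds its mitochondrially encoded centre with nuclear subunits, several of which have a common and a tissue-restricted form. Of its 21 nuclear members 15 were tested, and the only one to pass was Cox7b2, the paralog of Cox7b that is known from testis. Cox7b2 (chr5:71442824-71548205) had 13.4, 11.99 and 10.95 CPM in the knockdown, against 2.69, 1.53 and 0.656 CPM in NC, a 7.48-fold higher mean (log2 fold change 2.88 ± 0.53, adjusted p 0.00877 by edgeR). The groups were far apart, all 3 tested blocks were higher in every knockdown library, and the gene passed in all 15 alternatives. Its level stayed low: 22.4 RPKM in the knockdown and 2.99 RPKM in NC, beside 152 RPKM in the knockdown and 274 RPKM in NC for the common form Cox7b. Cox7b had 110.4, 237 and 204 CPM in the knockdown, against 223, 299 and 477 CPM in NC, with overlap (-0.86, adjusted p 0.162 by edgeR).

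Other tissue-restricted forms did not pass. Cox6b2, known from testis, had 19.9, 36.2 and 32.9 CPM in the knockdown and 8.8, 20.1 and 37.6 CPM in NC (0.42). Cox7a1, known from heart and skeletal muscle, had 11.2, 25.99 and 36.8 CPM in the knockdown and 10.6, 25.6 and 26.1 CPM in NC (0.25). Both had overlapping groups. Cox4i2, Cox6a2, Cox8b, Cox8c and Ndufa4l2 had too few counts for the test, with 9, 42, 2, 20 and 22 counts over all 6 libraries. Cox6a2 drew 22 of its counts from knockdown replicate 1, and Cox8c 12 of its counts from NC replicate 2.

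Among the common subunits of complex IV, Cox8a had 185, 364 and 342 CPM in the knockdown, against 407, 616 and 884 CPM in NC (-1.10, adjusted p 0.0815 by edgeR). Every knockdown library was below every NC library. Cox7a2l, which links complexes III and IV, had 57.5, 70.7 and 69.4 CPM in the knockdown, against 119, 94.9 and 78.6 CPM in NC (-0.56, adjusted p 0.201 by edgeR), also without overlap. Cox7c had -1.13 (adjusted p 0.143 by edgeR) with overlap.

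The most abundant nuclear members of the complex per length were Cox6a1, with 875 RPKM in the knockdown and 1525 RPKM in NC, and Cox6b1, with 1106 RPKM in the knockdown and 1363 RPKM in NC. Neither passed (-0.80 and -0.30). Cox4i1, Cox5a, Cox5b, Cox6c, Cox7a2 and Ndufa4 had log2 fold changes between -0.52 and 0.17 and overlapping groups.

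In the ATP synthase the catalytic pair had similar fold changes. None of its 18 tested nuclear members passed. At an unadjusted p under 0.05 (edgeR) 5 of the 18 were lower, against 13.7% of all genes tested. DESeq2 called 4 as lower (Atp5a1, Atp5b, Atp5g3 and Atp5l), against 1490 of all 15619 genes tested. Atp5a1 encodes the alpha and Atp5b the beta subunit of the catalytic head, which alternate around its ring. Atp5a1 had 452, 208 and 229 CPM in the knockdown, against 966, 673 and 486 CPM in NC (-1.26, adjusted p 0.0601 by edgeR). Atp5b had 707, 337 and 417 CPM in the knockdown, against 1368, 876 and 849 CPM in NC (-1.08, adjusted p 0.0764 by edgeR). In both genes every knockdown library was below every NC library and replicate 1 was the highest of its group. The remaining subunits of the head and its stalk lay nearer 0: Atp5c1 (gamma), Atp5d (delta) and Atp5e (epsilon) had -0.19, 0.22 and -0.39, with overlap.

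The proton-carrying ring of the synthase is made of subunit c, which Atp5g1, Atp5g2 and Atp5g3 encode as an identical mature protein. Atp5g3 had 308, 424 and 406 CPM in the knockdown, against 614, 532 and 873 CPM in NC, without overlap (-0.83, adjusted p 0.0992 by edgeR). Atp5g1 had 725, 1292 and 1655 CPM in the knockdown, against 1029, 1950.0 and 2532 CPM in NC (-0.59), and Atp5g2 had 91.3, 145 and 137 CPM in the knockdown, against 139, 146 and 262 CPM in NC (-0.55). The share of each gene in the summed CPM of the 3 differed between the groups by less than its SD. Atp5g1 held 69.7 ± 5.43% in the knockdown and 67.0 ± 8.42% in NC, Atp5g3 22.9 ± 4.48% in the knockdown and 26.2 ± 7.39% in NC, and Atp5g2 7.38 ± 1.01% in the knockdown and 6.83 ± 1.17% in NC (SD, n = 3 each). These shares do not allow for exon length and do not rank the genes. By RPKM Atp5g3 was the highest, with 346 in the knockdown and 613 in NC. Atp5g1 had 251 RPKM in the knockdown and 377 RPKM in NC, and Atp5g2 74.3 and 109 RPKM. Transcripts of other genes held 100% of the coding sequence of Atp5g1 and Atp5g2 at 97% identity or more, and 0% of Atp5g3. The part of these copies in the shares and in the order by RPKM was not tested.

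The accessory subunits Atp5l and Atp5k, which lie where synthase dimers meet, had log2 fold changes of -1.19 (adjusted p 0.0918 by edgeR) and -1.16 (adjusted p 0.127 by edgeR). Atp5l had 57.6, 141 and 124 CPM in the knockdown, against 137, 239.9 and 358 CPM in NC, with overlap. Both Atp5o entries, the stalk protein OSCP, had nearly the same fold change (-0.42 and -0.44), and their reads cannot be told apart since all exon bases of the second entry overlap Atp5o or Donson. Atp5f1, Atp5h, Atp5j, Atp5j2 and Atp5mpl lay between -0.88 and -0.03 with overlap, and Atp5s had the highest log2 fold change of the nuclear members of the complex (0.54, adjusted p 0.442 by edgeR).

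**Figure D3:**
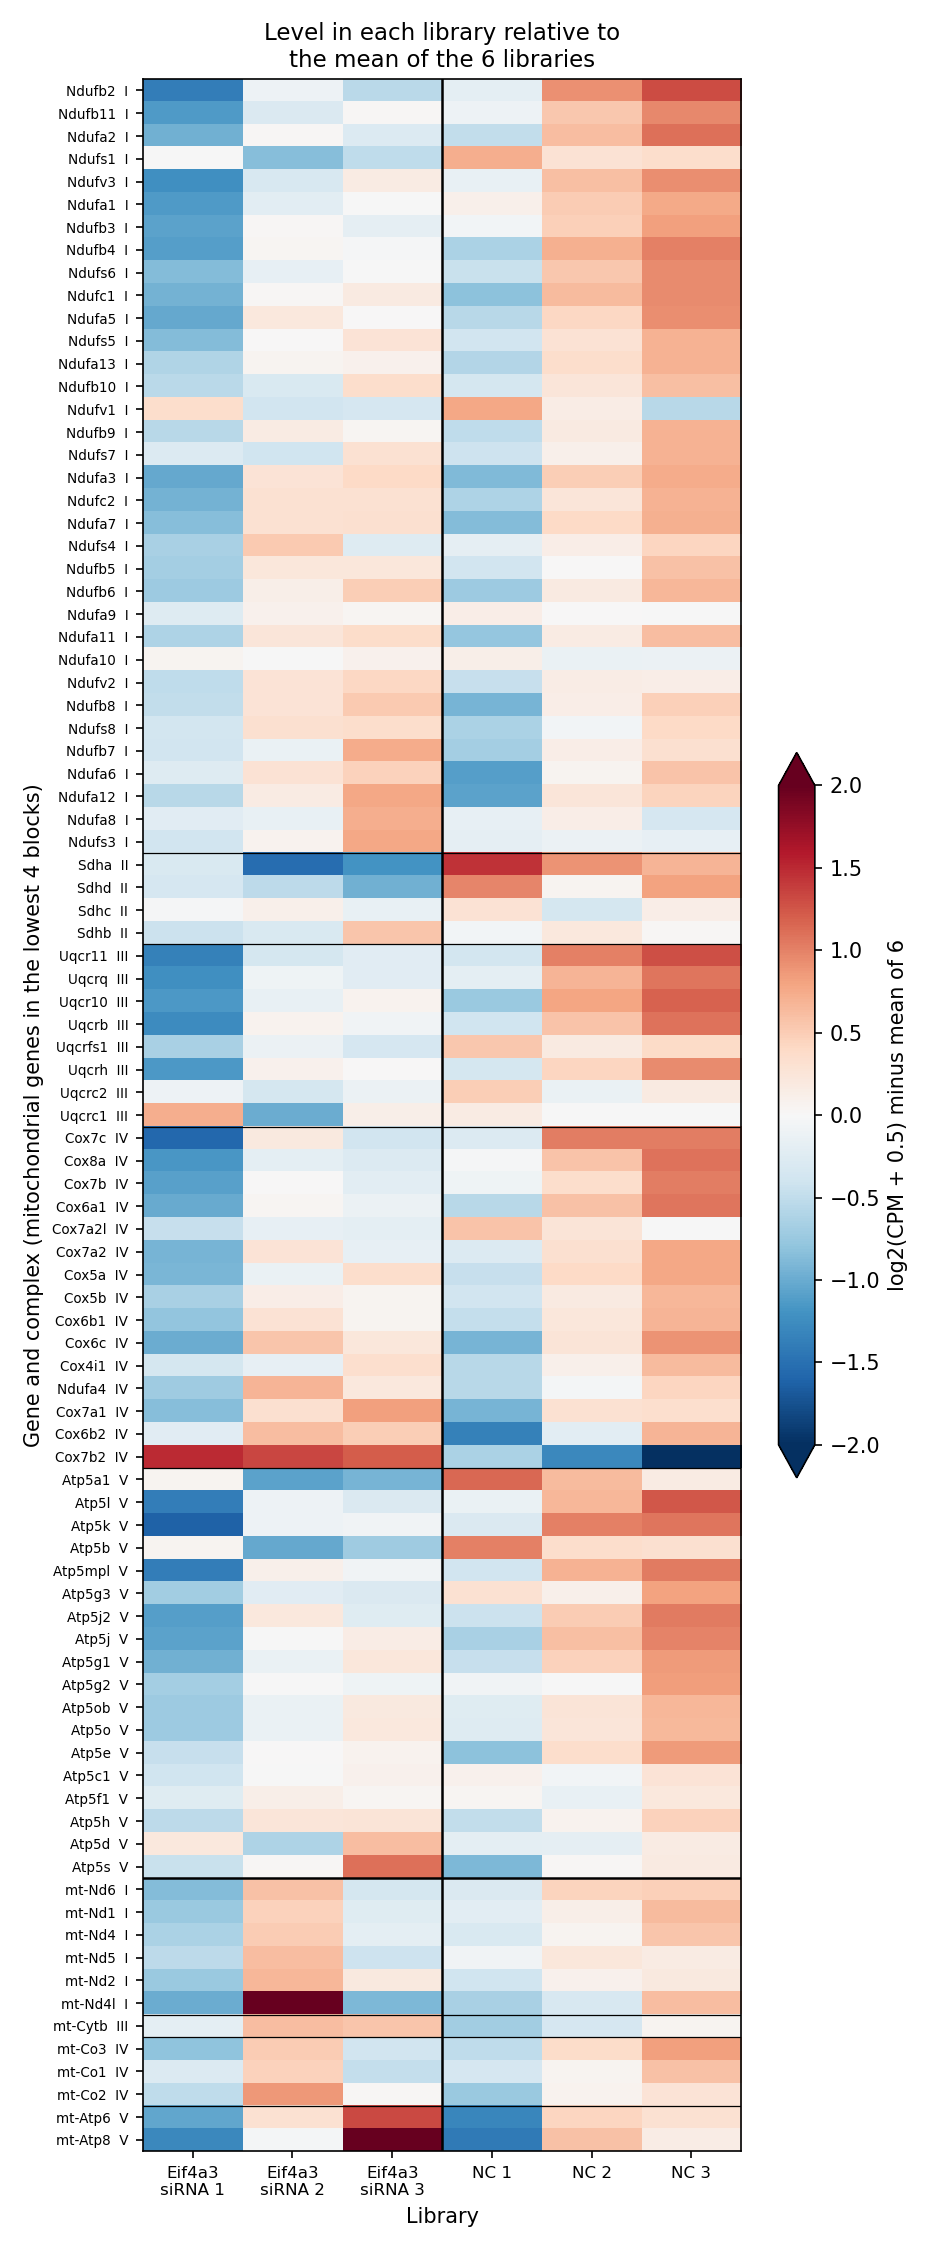
Level of each tested member but 1 (rows, nuclear complexes I to V and then the mitochondrial genes, sorted within each by fold change) in each library (columns, knockdown 1 to 3 and NC 1 to 3), as log2(CPM + 0.5) minus the mean of the 6 libraries. The row marked Atp5ob is the second Atp5o entry. Red is above and blue below the mean. Sdha and Sdhd are blue in the knockdown and Cox7b2 is red there, and the first column of each group is blue for most of the short nuclear genes.

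The mitochondrial protein genes spanned several orders of magnitude. In the knockdown mt-Cytb, which carries the haems of complex III, averaged 7060.2 RPKM, and in NC 4459 RPKM, the highest level of any member in both groups. Next came mt-Nd1 (2239 RPKM in the knockdown and 2788 RPKM in NC) and mt-Co1 (2090.0 RPKM in the knockdown and 2374 RPKM in NC), and the other subunits of complex I at this end, mt-Nd2, mt-Nd4, mt-Nd5 and mt-Nd6, were at 324 to 594 RPKM in the knockdown and 351 to 613 RPKM in NC. At the low end mt-Nd3, mt-Co2, mt-Co3 and mt-Nd4l averaged 0.901 to 21.7 RPKM in the knockdown and 1.68 to 18.6 RPKM in NC, and mt-Nd3 was not tested, with 45 counts in all. All of these genes are transcribed from the same DNA circle as parts of long precursors.

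Several mitochondrial genes had near-identical copies among the nuclear transcripts. For mt-Co2, mt-Atp6, mt-Co3, mt-Nd3 and mt-Nd4l a chromosome 1 transcript matched the whole gene at 99.7 to 100% identity. The counting command named no option for pairs with several alignments, and how many such pairs there were was not measured. These 5 genes averaged 0.901 to 75.6 RPKM in the knockdown and 1.68 to 53.2 RPKM in NC, and the other 8 averaged 144 to 7060.2 RPKM in the knockdown and 78.8 to 4459 RPKM in NC. The copies held counts of their own: Gm10925, the copy of mt-Atp6, had 11652 counts over the 6 libraries, Gm28437 (mt-Co3) 2705 and Gm28661 (mt-Co2) 2421. The levels of these 5 genes are uncertain, and the part of the copies in them was not tested. The search covered annotated transcripts only, so other nuclear copies were not sought. For mt-Nd4 an identical copy covered 876 of 1378 bases, and the gene averaged 542 RPKM in the knockdown and 613 RPKM in NC. The level of mt-Atp8 averaged 144 RPKM in the knockdown and 78.8 RPKM in NC, with 30.8 RPKM in knockdown replicate 1 and 28.3 RPKM in NC replicate 1. No copy of mt-Nd1 or mt-Atp8 was found among the nuclear transcripts searched. However, 21.1% of the bases of mt-Atp8 are shared with mt-Atp6, which has a copy. The closest copy of mt-Cytb matched at 92.9%.

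**Figure D4:**
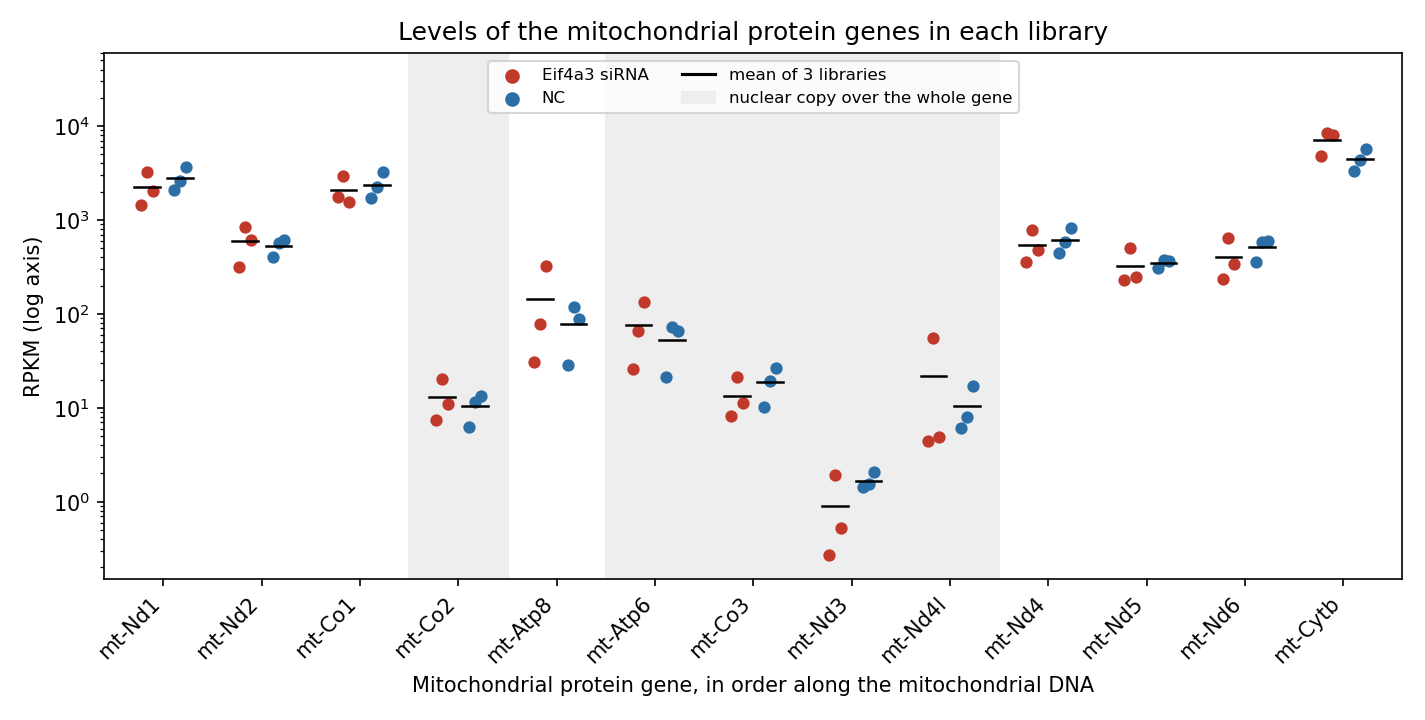
Level of the 13 mitochondrial protein genes in RPKM (vertical log axis) in each knockdown and NC library, in gene order along the mitochondrial DNA (horizontal axis). Points are libraries, black bars are means of 3, and grey bands mark the 5 genes with a nuclear copy over their whole length. The genes in grey bands average at most 75.6 RPKM, and mt-Cytb is at the top in both groups.

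None of the 12 tested mitochondrial members passed. For mt-Cytb the libraries had 5438, 9615 and 9178 CPM in the knockdown, against 3842, 4942 and 6519 CPM in NC (log2 fold change 0.66, adjusted p 0.254 by edgeR), and NC replicate 3 exceeded knockdown replicate 1. The core subunits mt-Co1 and mt-Nd1 had values below 0 without passing: mt-Co1 had 2744, 4567 and 2376 CPM in the knockdown, against 2618, 3428 and 4959 CPM in NC (-0.18), and mt-Nd1 had 1367, 3134 and 1928 CPM in the knockdown, against 1987, 2473 and 3545 CPM in NC (-0.32). In the knockdown, replicate 2 was the highest library for mt-Nd1, mt-Nd2, mt-Nd4, mt-Nd5, mt-Nd6 and mt-Co1.

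The remaining subunits of complex I varied in the same way. For mt-Nd2 the libraries had 330.2, 882 and 636 CPM in the knockdown, against 421, 589.9 and 635 CPM in NC. For mt-Nd4 they had 492, 1083 and 667 CPM in the knockdown, against 619.5, 796 and 1120.2 CPM in NC. For mt-Nd5 they had 415, 911 and 448 CPM in the knockdown, against 563, 691 and 666 CPM in NC. The log2 fold changes were 0.17, -0.18 and -0.11, and all groups overlapped. For mt-Nd6, the only member on the other strand of the circle, the libraries had 122, 337 and 175 CPM in the knockdown, against 184, 305 and 310.3 CPM in NC (-0.33).

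Both mitochondrial subunits of the ATP synthase come from overlapping reading frames, and both were highest in knockdown replicate 3. For mt-Atp8 the libraries had 6.28, 15.8 and 66.1 CPM in the knockdown, against 5.77, 24.4 and 18.05 CPM in NC (0.87, adjusted p 0.479 by edgeR). For mt-Atp6 they had 17.4, 45.1 and 91.8 CPM in the knockdown, against 14.5, 49.2 and 44.95 CPM in NC (0.51, adjusted p 0.603 by edgeR). The values within a group spread more than the group means differed. For mt-Nd4l, whose fold change was the highest (1.06, adjusted p 0.468 by edgeR), knockdown replicate 2 had 16.5 CPM and the other 5 libraries had 1.31 to 5.05 CPM. Without that library its log2 fold change was -1.15. For mt-Co2 and mt-Co3 the log2 fold changes were 0.33 and -0.46, with overlap.

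Summed over all 13 genes, the mitochondrial members had 10944, 20639 and 15585 CPM in the knockdown, against 10268, 13324 and 17853 CPM in NC (log2 ratio 0.19). Without mt-Cytb the sums were 5506, 11024 and 6407 CPM in the knockdown, against 6426, 8382 and 11334 CPM in NC, and the log2 ratio was -0.19. With mt-Cytb kept, the log2 ratio also turned below 0 without knockdown replicate 2 (-0.06) or NC replicate 1 (-0.01). The groups overlapped in both sums. The nuclear members made up 2.75, 3.46 and 3.38% of all block counts in the knockdown, against 3.25, 4.01 and 4.72% in NC, and the mitochondrial members 1.25, 2.11 and 1.38% in the knockdown, against 1.12, 1.29 and 1.604% in NC.

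Within each group, replicate 1 differed from the other libraries by gene length. It was the lowest library for 66 of 80 tested nuclear members in the knockdown and for 61 of 80 in NC, against 36.0% (knockdown) and 34.6% (NC) of all tested genes with a coding sequence. Most respiratory chain subunits are small proteins: 59 of the 80 members had a coding length under 600 bases, and replicate 1 was the lowest for 55 of these in the knockdown, for 53 in NC and for 52 in both groups. Of the 21 longer members, replicate 1 was the lowest for 11 in the knockdown and for 8 in NC, and the highest for 8 in the knockdown and for 11 in NC. Across the 80 genes, which share libraries and are not independent, the difference between replicate 1 and the mean of the other libraries had a Spearman rho with coding length of 0.69 in the knockdown and 0.67 in NC, against 0.23 and 0.22 over 12575 genes. Among all 1808 tested genes with a coding length under 600 bases, replicate 1 was the lowest for 1231 in the knockdown and 1142 in NC.

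Named members of both length classes showed this. The long members Ndufs1, Sdha, Atp5a1 and Atp5b had replicate 1 as the highest of its group in both groups, and the short members Ndufb2, Uqcr11, Cox7c, Atp5k and Atp5l had it as the lowest. The median log2 fold change was -0.46 for the 59 shorter and -0.29 for the 21 longer nuclear members, against 0.11 and -0.03 for all tested genes of the same length classes. The part of this length pattern in the fold changes was not tested.

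**Figure D5:**
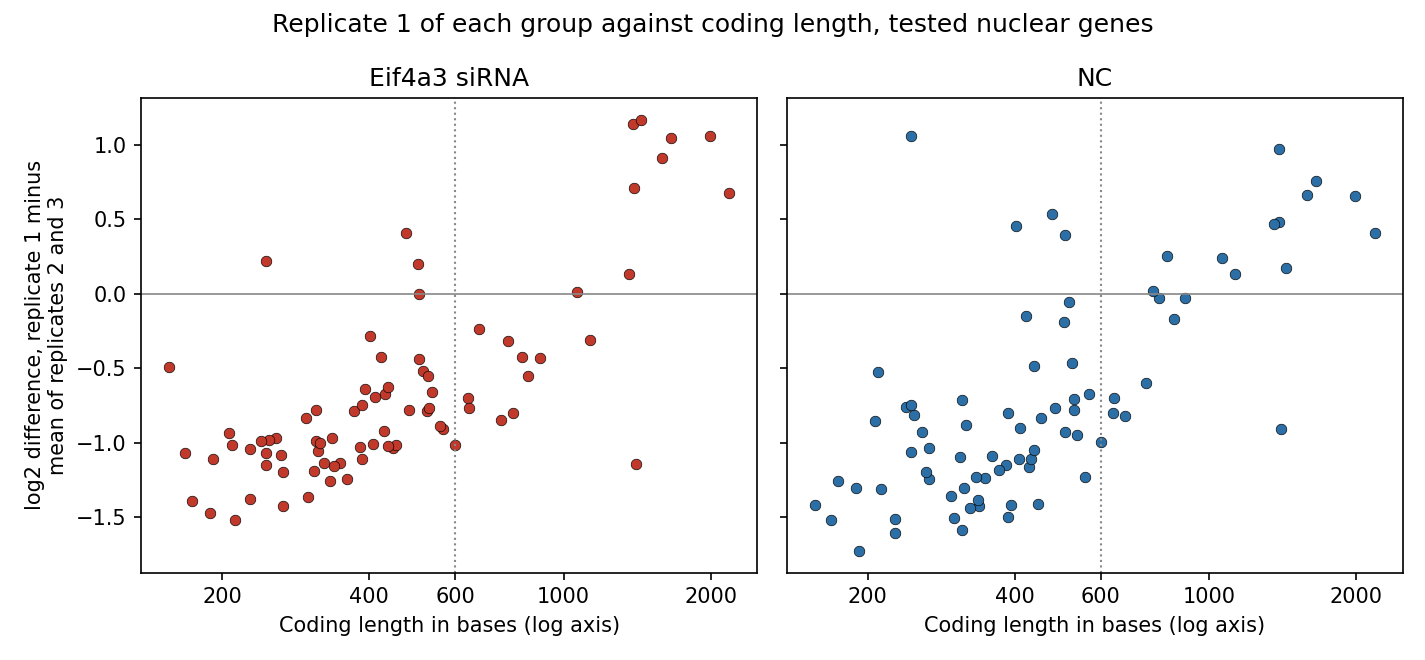
Difference between replicate 1 and the mean of replicates 2 and 3 in log2(CPM + 0.5) (vertical axis) against coding length (horizontal log axis) for the 80 tested nuclear members, in the knockdown (left) and in NC (right). The dotted line marks 600 bases. Most points left of the line are below 0 in both panels, and the longest genes are mostly above 0.

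Use of single exons was compared over 67890 exon blocks of 9494 genes, of which 0.175% passed. Of 421 tested member blocks in 80 genes 2 passed, both used more in the knockdown, and 7 had an unadjusted p under 0.05 (edgeR), against 1724 of all 67890 blocks. Under a filter of 10 counts in 3 libraries, both blocks enter the test through the knockdown libraries alone. By the Simes test, which combines the blocks of a gene, 1 of 80 member genes passed, against 92 of 9494. It was Ndufs4 (adjusted p 0.0116 by Simes), and Ndufa10 did not pass (adjusted p 0.0599 by Simes). No block of Sdha, Sdhd or Cox7b2 passed (lowest adjusted p 1 by edgeR).

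In Ndufs4, an accessory subunit of complex I whose loss in mice causes an encephalopathy, the block that passed is the terminal exon printed above with its downstream part (chr13:114360768-114361545). It had 53, 67 and 65 counts in the knockdown, against 1, 5 and 5 counts in NC, which is 2.48, 4.82 and 4.39 CPM in the knockdown, against 0.0494, 0.354 and 0.346 CPM in NC. All knockdown libraries lay above all NC libraries, and the log2 difference in use was 2.83 (adjusted p 0.0109 by edgeR). Relative to the most counted block of the gene, it held 7.14, 4.97 and 8.70% in the knockdown, against 0.0987, 0.530 and 0.427% in NC. The 5 other tested blocks of Ndufs4 did not pass and the gene as a whole did not pass (131, 298 and 172 CPM in the knockdown, against 182, 227 and 279.6 CPM in NC, log2 fold change -0.20). The call of this exon was lost without knockdown replicate 3, NC replicate 1, NC replicate 2 or NC replicate 3, where the log2 difference was 2.56 to 3.08 and the adjusted p by edgeR reached 0.204.

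In Ndufa10, another accessory subunit of complex I, the 40-base exon printed above had 28, 11 and 13 counts in the knockdown, against 2, 0 and 2 counts in NC (log2 difference in use 2.31, adjusted p 0.037 by edgeR). It held 1.32, 0.712 and 0.774% of the most counted block in the knockdown, against 0.0987, 0 and 0.154% in NC. The groups did not overlap, but the counts are few and the call was lost when any of the 6 libraries was left out (adjusted p 0.107 to 0.933 by edgeR). The 10 other blocks of Ndufa10 and the gene as a whole (654, 628 and 672 CPM in the knockdown, against 686, 578 and 581 CPM in NC) did not pass.

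Promoter windows of 250 bases before to 50 after the start were available for 66 of the 101 symbols. The full palindromic NRF1 motif stood on either strand in 5 of 66 member windows (7.58%) and in 1.07% of all 27025 windows, and its core letters GCGCA in 42 (63.6%) against 32.9%. The YY1 motif AAGATGGC stood in 9 windows (13.6%) against 3.19%, and in 8 of these it lay 22 to 38 bases after the start. With only the bases before the start its share was 1.52%, against 1.83% of all windows. The ETS motif CCGGAAGT stood in 5 windows (7.58%) against 4.31%, and TATAAA in 7 (10.6%) against 15.7%. The core letters were added after the values had been seen and also occur inside the full NRF1 motif. None of these matches says that a factor binds there.

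Genes that work beside the respiratory chain were counted in the same fit. None of 9 tested carriers and subunits outside the symbol rule passed (median log2 fold change 0.02), and the lowest unadjusted p belonged to Atpif1, the inhibitor of the ATP synthase, with 93.5, 215 and 214 CPM in the knockdown, against 161, 509 and 570.3 CPM in NC (-1.25, adjusted p 0.114 by edgeR). Of 50 assembly factors 4 rose and none fell (median 0.13), a share close to the 7.52% of all genes tested that were higher. The 4 were Sco2, a copper chaperone of complex IV (1.69, adjusted p 0.0129), Sdhaf3, an assembly factor of complex II (1.596, adjusted p 0.0125), Ndufaf6 of complex I (1.31, adjusted p 0.0329) and Taco1, the translational activator of mt-Co1 (1.17, adjusted p 0.036, all by edgeR). Sdhaf3 had 32.8, 53.1 and 35.99 CPM in the knockdown, against 11.8, 14.7 and 13.8 CPM in NC, without overlap.

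Of 19 tested genes of the citric acid cycle and pyruvate oxidation, 3 fell and none rose (median -0.48), against 5.56% lower and 7.52% higher of all genes tested. Cs, the citrate synthase that opens the cycle, had 153, 97.5 and 107 CPM in the knockdown, against 451, 297 and 413 CPM in NC (-1.70, adjusted p 0.0084 by edgeR), without overlap. Idh3a, a subunit of isocitrate dehydrogenase, had -1.26 (adjusted p 0.0397) and Fh1, the fumarase that follows complex II in the cycle, -1.07 (adjusted p 0.0475, both by edgeR). Of 12 tested carriers, porins and alternative routes 4 fell and none rose (median -0.63), against the same shares. These were Slc25a4 and Slc25a5, which exchange ADP and ATP across the inner membrane, and the outer membrane porins Vdac2 and Vdac3. Slc25a4 had 192, 189 and 189.8 CPM in the knockdown, against 665, 485 and 600.3 CPM in NC (-1.62, adjusted p 0.00653 by edgeR). The other 3 had -1.14 (adjusted p 0.0447), -1.20 (adjusted p 0.0211) and -1.08 (adjusted p 0.0288, all by edgeR).

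Of the 10 members with too few counts, 5 are named above with complex IV and mt-Nd3 with the mitochondrial genes. The others were Ndufa11b, Ndufb4c, Ndufs6b and Cox6c2, loci named after other members, with 7, 32, 31 and 37 counts. In all, 37 members share exon bases with another gene, 26 of them with one on the other strand, whose reads an unstranded method does not separate. None of Sdha, Sdhd and Cox7b2 is among them. Of 85 nuclear members with a coding sequence, 16 had over 50% of it in the transcripts of another gene at 97% identity or more. Ndufb2, Uqcr11, Cox7c, Atp5l and Ndufs3, named above for their fold changes, are among these, and Sdha, Sdhd and Cox7b2 are not. Atp5g1 and Atp5g2, whose shares and RPKM are given above, are among them too. No such stretch was found for 62 of all 89 nuclear members, those without a coding sequence included.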

How the data were processed

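Per the file headers, the deposited values are raw counts of read pairs per exon line, made by the authors with featureCounts 2.0.1 on GENCODE vM29 lifted to GRCm38, with strand setting 2 and each pair counted in every line it overlapped. The submitters' processing notes name fastp 0.20.1, FastQC 0.11.9 and STAR 2.7.6a. From the 842173 lines, repeated exons were dropped (449500 left), overlapping exons of a gene were joined (291424 blocks), each block took its most counted line, and blocks were summed per gene. A pair across a junction counts in more than 1 block, so sums are not read numbers. Smart-seq2 marks no strand, so pairs of the other orientation are missing.

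The unpaired groups were compared with edgeR 4.0.16 in R 4.3.3 (filterByExpr, TMM, glmQLFTest, two-sided), adjusted by Benjamini-Hochberg over 15619 genes with a threshold of 0.05. Fold changes are knockdown over NC. Exon use was tested with diffSpliceDGE over blocks. An exact permutation test of 3 against 3 cannot go below 0.1 and was not used. Scripts were tested on simulated data with known changes. Copies were sought with BLAST+ 2.17.0 among GENCODE vM21 nuclear transcripts; promoters are from RefSeq (GRCm38.p6). Protein sequences were not used here.

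The members, complexes and 8 further lists were chosen with earlier results of these data known. Values in every library are given for members past the threshold, for mitochondrial protein genes, per complex mostly for the nuclear members with the smallest p or highest RPKM in NC, and for tissue-restricted and c-subunit genes; some others were named after their values were seen. Alternatives changed the scaling, the test (DESeq2 1.42.0), the filter, the gene value and the libraries. The values of 1 member of complex I are not reported here.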

Additional observations from a re-analysis of the deposited data

How the results depend on the processing

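With all libraries kept, the nuclear median log2 fold change lay between -0.42 and -0.33 and the mitochondrial one between -0.15 (no filter) and 0.08. With 1 library left out, the nuclear median was -0.65 (without NC replicate 1) to -0.20 (without NC replicate 3), and the mitochondrial median -0.54 (without knockdown replicate 2) to 0.07. The log2 ratio of summed CPM was then -0.06 to 0.39 for the mitochondrial members, -0.42 to 0.03 for nuclear complex I, -0.54 to -0.21 for complex II, -0.70 to -0.38 for complex III, -0.74 to -0.15 for complex IV and -0.67 to -0.34 for complex V. Cox7b2 and Sdha passed in all 15 alternatives. Sdhd passed in 9, and was lost without scaling factors, with all exon lines summed, and without knockdown replicate 2, knockdown replicate 3, NC replicate 1 or NC replicate 3. The count of lower members was 1 without scaling factors, 11 with DESeq2, 12 without a filter, 1 with all exon lines summed and 4 with the most counted block, and 1 to 6 with 1 library left out. Those added by DESeq2 included Atp5a1, Atp5b, Atp5g3, Atp5l, Cox8a, Ndufb2, Ndufs1 and Uqcr11. Over all genes, lower genes numbered 548 without scaling factors and 495 with all exon lines summed. DESeq2 gave 1829 higher and 1490 lower genes, and no filter gave 2089 and 1518, where the median of all genes moved to 0.17. With 1 library left out, 550 to 1223 genes were higher and 336 to 1131 lower, and 0 to 1 member exon blocks passed. The share of member windows with the YY1 motif before the start was 1.52%.

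The replicate numbers were not taken as pairs. The correlations of same-numbered libraries after removal of group means were 0.27, 0.00 and 0.10. The closest match of NC replicate 2 was knockdown replicate 3 (0.19). For NC replicates 1 and 3 the closest match had the same number, and the 0.27 of replicate 1 was the highest of all pairs. The main fit has no term for the length pattern that replicate 1 showed in both groups. With the number as a replicate block, 20 of 92 members were lower, 2 higher (Cox7b2 and mt-Cytb) and 5 member exon blocks passed, a change whose cause was not tested. Over all 15619 genes tested, 1198 were lower and 1332 higher in this setting. The number over all exon blocks in this setting is not given here.

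Of the named members that did not pass, Sdhb had a log2 fold change of 0.0004 and Sdhc of 0.0017 with a filter of 5 CPM. With the main filter both had -0.06. With 1 library left out, the log2 fold change crossed 0 for Cox7a1 (-0.17 to 0.57), Ndufb9 (-0.57 to 0.0185), Sdhb (-0.44 to 0.0831), Sdhc (-0.28 to 0.054), mt-Atp6 (-0.22 to 0.89), mt-Atp8 (-0.56 to 1.32), mt-Co1 (-0.52 to 0.0747), mt-Co2 (-0.15 to 0.58), mt-Nd2 (-0.18 to 0.43), mt-Nd4 (-0.54 to 0.0582), mt-Nd4l (-1.15 to 1.59) and mt-Nd5 (-0.57 to 0.0505). With 3 libraries a group and replicate 1 set apart by length, the main fit did not resolve differences of the size seen for most nuclear members. With the replicate number as a block, 20 of 92 members passed as lower. A p that misses the threshold does not show that levels were alike.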

Other observations

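Genes that express the mitochondrial DNA were mostly without a call. Of 30 tested genes for its maintenance and expression 1 fell and none rose (median log2 fold change 0.17), against 5.56% lower and 7.52% higher of all genes tested. It was Lrpprc, which binds and stabilises mitochondrial mRNAs, with 66.6, 53.3 and 53.6 CPM in the knockdown, against 187, 160.5 and 167 CPM in NC (-1.57, adjusted p 0.00638 by edgeR). The groups did not overlap. Of 78 mitochondrial ribosomal protein genes 1 rose and none fell (median 0.14), fewer than the 7.52% higher of all genes tested. It was Mrpl39, with 320, 432 and 481 CPM in the knockdown, against 153, 207 and 207 CPM in NC (1.12, adjusted p 0.032 by edgeR). Of 9 tested regulators of mitochondrial biogenesis 1 fell and none rose (median -0.00), against 5.56% lower of all genes tested. It was Ppargc1b, a coactivator of respiratory chain genes, with 0.609, 0.485 and 0.602 CPM in the knockdown, against 6.22, 6.57 and 2.56 CPM in NC (-3.16, adjusted p 0.00852 by edgeR).

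Among 19 tested rRNA and tRNA genes of the mitochondrial DNA 3 fell and none rose (median -0.36), against 5.56% lower of all genes tested. These were mt-Ta, mt-Tn and mt-Tc, neighbours in the tRNA cluster between mt-Nd2 and mt-Co1. The level of mt-Tc was 1.08, 2.48 and 1.69 CPM in the knockdown, against 6.07, 6.84 and 8.79 CPM in NC (-2.05, adjusted p 0.022 by edgeR), without overlap. Both other genes had -2.05 (mt-Tn, adjusted p 0.0373) and -1.81 (mt-Ta, adjusted p 0.044, both by edgeR). The rRNA genes mt-Rnr1 (-0.36) and mt-Rnr2 (0.54) did not pass. Counts of these short genes are low, and pairs from longer transcripts across them are counted in them as well.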
